A study of Mus musculus with 2 samples.

Results

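Cycling C1q macrophages were taken from 2 single-cell libraries of CD45+ cells sorted from B16-F10 tumors, a mouse melanoma line grown under the skin of C57BL/6 mice. A cell was kept when mt- genes made up less than 10% of its UMIs (unique molecular identifiers, which count captured mRNA molecules), and it was a member when C1qa, C1qb and C1qc together gave at least 10 UMIs, Mki67 and Top2a together at least 3, and Cd3d, Cd3e and Cd3g together at most 1. This rule found 136 members among 12078 kept cells: 64 of 6284 in the Irg1+/+ library and 72 of 5794 in the Irg1-/- library. Members were thus chosen by their own counts, so that all values of C1q and of cell cycle genes below describe the choice.

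Both genotypes received 200000 tumor cells, and on day 10 a piece of 100 mm3 was cut from each tumor. The pieces of 3 mice of a genotype were pooled into 1 library. Irg1-/- mice, backcrossed to C57BL/6J, lack Irg1 (Acod1) in every cell type, and the labels name no treatment for either group. With 1 library per genotype no test between genotypes was possible, and the 95% intervals given (exact Poisson for levels, Clopper-Pearson for shares, conditional binomial for ratios) cover counting error only. Levels are UMIs summed over the cells of a group, per 1000000 UMIs (CPM).

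C1q is the recognition subunit of the classical complement pathway, and in tumors its 3 chains are made mainly by macrophages. Tumor macrophages are replenished by blood monocytes that mature in the tissue, but mature macrophages can also divide in place. In a dividing cell the replication genes are transcribed from G1 into S phase under E2F factors, and the mitotic genes, Mki67 and Top2a among them, follow in G2 and M. Irg1 encodes the mitochondrial enzyme that makes itaconate in activated macrophages.

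The label was first checked against marker genes, which bore it out more clearly for some members than for others. C1q levels split the members with a gap: 45 members of the Irg1+/+ library lay at 2193 CPM or above and 19 at 1363 CPM or below, and in the Irg1-/- library 54 lay at 2453 CPM or above and 18 at 1508 CPM or below. A line at 2000 CPM, drawn after these values were seen, separates C1q-rich from C1q-low members. The median C1q level was 7409 and 8424 CPM in C1q-rich members and 673 and 815 CPM in C1q-low members (Irg1+/+ first, here and throughout), against 588 and 538 CPM in T cells with at least 5 Cd3 UMIs. T cells should lack C1q, but this set had no limit on it: 919 of its 1255 and 479 of its 632 cells had under 10 C1q UMIs. The C1q-low members thus carried C1q at a level near the median of these T cells, and they met the gate of 10 UMIs with medians of 18316 and 17004 UMIs per cell.

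Dendritic cell markers were higher in sum in the C1q-low members, though not in each of them. The 10 dendritic cell markers summed to 2117 and 1321 CPM in C1q-low members and to 187 and 280 CPM in C1q-rich ones, with 9 of the 10 markers present in the C1q-low members of each library (Siglech at 0) and Fscn1, an actin bundler of mature dendritic cells, the most abundant. In the C1q-low members 1 cell held 29.8% and 41.1% of these UMIs, and 12 of 19 and 8 of 18 had 10 or more of them, against 0 of 45 and 5 of 54 C1q-rich members. Flt3, the receptor for the growth factor of dendritic cells, stood at 200.05 and 113 CPM in C1q-low members (74 and 33 UMIs) and at 7.61 and 9.69 CPM in C1q-rich ones (5 and 8 UMIs). Xcr1, a receptor of cross-presenting dendritic cells, stood at 268 and 171 CPM against 21.3 and 30.3 CPM. The macrophage phagocytosis receptor Mertk stood at 0 and 13.7 CPM in C1q-low members (0 and 4 UMIs) against 76.1 and 40.0 CPM in C1q-rich ones, and Adgre1 (F4/80) stood at 35.1 and 85.4 CPM against 397 and 517 CPM in C1q-rich members. The 26 core macrophage genes summed to 39494 and 36629 CPM in C1q-rich members, close to the 41316 and 39600 CPM of non-cycling C1q cells, and to 24982 and 26228 CPM in C1q-low members. Single C1q-low members ranged from 7482 to 44428 CPM of these genes in Irg1+/+ and from 7443 to 54027 CPM in Irg1-/-. At least 1 Csf1r UMI was read in 18 of 19 and 17 of 18, a low bar that an Irg1+/+ member with 848 UMIs of melanocyte markers also met. The markers thus bear the name macrophage out for the 45 and 54 C1q-rich members as groups, though not for each of them. Among the Irg1-/- ones 1 held 37 UMIs of dendritic cell markers, 1 held 50 of NK cell markers, and 1 had 17863 CPM of the core genes. The C1q-low members are mixed: some carry dendritic cell markers and others a core macrophage level as high as that of C1q-rich members. Cst3, which is also high in dendritic cells, gave 4760 of the 9241 and 2639 of the 7681 core UMIs of C1q-low members. The core level alone thus does not name these C1q-low members macrophages. All stay among the members by the rule. Values for C1q-rich members alone are given beside many of the main ones, and the C1q-rich counts rest on fewer cells.

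**Figure D1:**
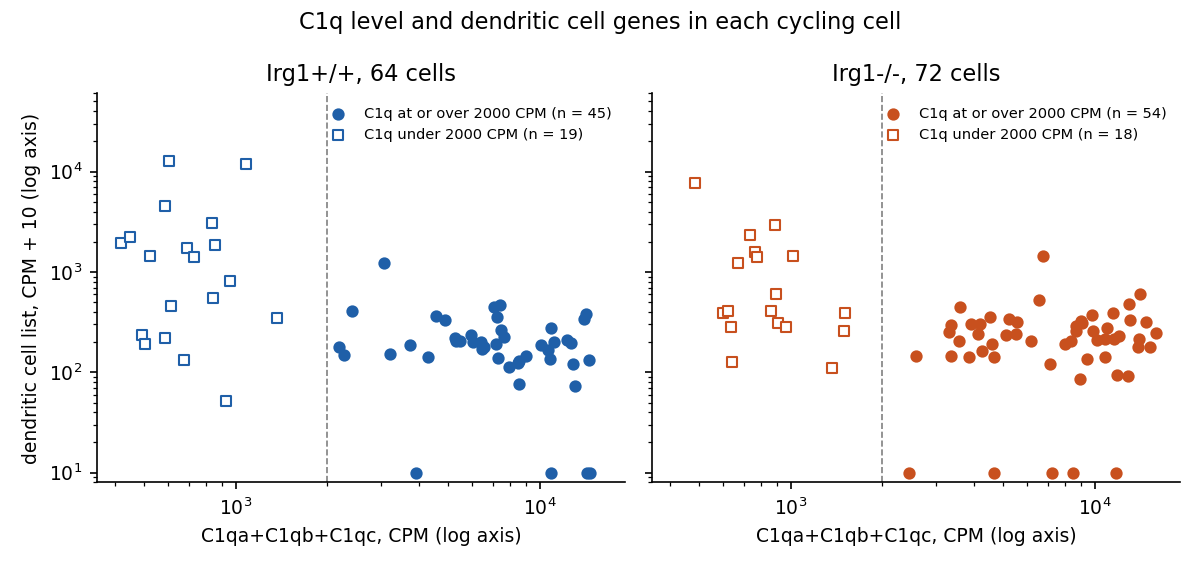
C1q level (C1qa+C1qb+C1qc, CPM) on the x axis against the summed level of 10 dendritic cell markers on the y axis (CPM, with 10 added so that 0 can be drawn on the log axis), 1 point per member and 1 panel per library, both axes logarithmic. The dashed line marks 2000 CPM; 19 and 18 members lie to its left, and no member lies between 1363 and 2193 CPM (Irg1+/+) or between 1508 and 2453 CPM (Irg1-/-).

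Markers of T and NK cells were read in most members. T cell markers reached 2 UMIs in 61 of 64 and 69 of 72 members, with at most 8.66% and 6.04% of these UMIs in 1 member. The 14 T cell markers summed to 630 and 637 CPM in members and to 599 and 499.7 CPM in non-cycling C1q cells, with none of the 14 at 0 and Trbc2 and Thy1 the most abundant. The 10 NK cell markers summed to 374 and 613 CPM, led by Nkg7 and Gzma with none at 0, against 272 and 633 CPM in non-cycling C1q cells, and they reached 2 UMIs in 52 and 64 members. Melanocyte markers gave 1379 and 111 CPM, with Gpr143 at 0 in both libraries and Cited1 also at 0 in Irg1-/-; in the Irg1+/+ library they were led by Dct, and 1 C1q-low member held 848 UMIs, 59.8% of them. Stroma and endothelium markers gave 72.0 and 421 CPM, led by Pecam1 and Col3a1, with Dcn, Lum, Cdh5 and Cldn5 at 0 in the Irg1+/+ library and Cldn5 at 0 in Irg1-/-, and 1 C1q-low Irg1-/- member held 313 UMIs. B cell markers gave 255 and 503 CPM, mostly Igkc, with Cd79a and Pax5 at 0 in both libraries and Ms4a1, Ighd and Iglc2 also at 0 in Irg1+/+. Neutrophil markers gave 49.6 and 132 CPM, led by Csf3r, with none at 0 in Irg1+/+ and Cxcr2 at 0 in Irg1-/-. Mast cell and basophil markers gave 25.3 and 44.7 CPM, led by Tpsb2, with Mcpt8 at 0 in both, Fcer1a also at 0 in Irg1+/+ and Gata2 in Irg1-/-. All 5 erythroid genes were at 0. The part of captured free RNA and of doublets in these values was not tested. Xist was read at 326 and 404 CPM.

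The limit on Cd3 removed more cells of one library than of the other. Of cells with C1q at 2000 CPM or above and at least 3 UMIs of Mki67 and Top2a, 153 in the Irg1+/+ library and 52 in the Irg1-/- library had more than 1 Cd3 UMI and were no members. Their core macrophage level was 38802 and 36355 CPM, near that of C1q-rich members, and their T cell markers summed to 1047 and 1240 CPM against 590 and 582 CPM. As these cells were set apart by their Cd3 UMIs, the higher T cell sum describes that choice in part. They were also deeper, with medians of 25459 and 21843 UMIs per cell. The Irg1+/+ library held more cells with at least 5 Cd3 UMIs at any level of C1q, 1255 of 6284 kept cells against 632 of 5794. Between the libraries 36 cell barcodes were shared, of which 0 and 1 belonged to members.

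Acod1, the deleted gene (chr14:103046977-103056573, plus strand, GRCm38), was not lower in the library labelled Irg1-/-. Members held 50 Acod1 UMIs in the Irg1+/+ library (48.7 CPM, 36.1 to 64.2) and 99 in the Irg1-/- library (88.5 CPM, 71.9 to 107.8), from 24 of 64 and 36 of 72 members. With members thinned to 4000 UMIs the log2 ratio was -0.0027 (-1.09 to 1.11). In non-cycling C1q cells the levels were 124 and 156 CPM. Cycling T cells, which should lack the gene, gave 22.1 and 22.5 CPM. The count is for the whole gene, so it cannot show whether the deleted stretch was transcribed, and it does not check the label. All directions between genotypes below are therefore those of the library labelled Irg1-/- against the library labelled Irg1+/+.

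The genes of the gate varied widely among members. C1qa, C1qb and C1qc, which lie side by side on the minus strand of chromosome 4 (C1qb chr4:136880129-136886187, C1qc chr4:136889804-136893065, C1qa chr4:136895917-136898803), gave 908, 2437 and 2089 CPM in the Irg1+/+ members and 1019.5, 3047 and 2174 CPM in the Irg1-/- members. Mki67, which keeps mitotic chromosomes apart (chr7:135689784-135716361), was read in 53 of 64 and 64 of 72 members, at 339.7 and 394 CPM. Top2a, the topoisomerase that untangles replicated DNA (chr11:98992943-99024189), was read in 58 and 69 members, at 356 and 562 CPM. Many members stood just inside the gate: 22 and 19 had exactly 3 UMIs of Mki67 and Top2a, and 17 and 29 had 10 or more, up to 67 and 103. Birc5 (survivin) and Cenpe (a kinetochore motor), not in the gate but in the marker list of these cells, were read in 37 and 47 members and in 26 and 35 members.

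The other cycle genes were compared on either side of the gate. The summed level of the G1/S and G2/M lists had a median of 1655 and 1435 CPM in the 51 and 63 C1q cells with 2 UMIs of Mki67 and Top2a, and of 1389 and 1922 CPM in the 22 and 19 members with 3. The median of the G2/M list alone was 752 and 570.2 CPM with 2 UMIs and 819 and 907 CPM with 3. Members with 4 UMIs had medians of 2744 and 3398 CPM. Taking the 95th percentile of non-cycling C1q cells (no UMI of either gene) as a mark, 3315 and 2651 CPM, 34 of 64 and 49 of 72 members lay above it, 22 of 45 and 37 of 54 among the C1q-rich. Of members with exactly 3 UMIs 7 and 6 lay above it, and of those with 10 or more 15 and 27. Most members with 10 or more UMIs thus lay above the non-cycling mark, and most of those with exactly 3 did not.

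Members made up 11.5% of C1q cells in the Irg1+/+ library (64 of 557, 8.96 to 14.4%) and 10.5% in the Irg1-/- library (72 of 688, 8.28 to 13%). The difference of -1.03 percentage points had an interval from -4.60 to 2.44. This interval runs from negative to positive values, covers counting error only and is no test between genotypes. Another gate had no limit on Cd3 and asked for C1q at 2000 CPM or above. Its shares were 23.4% (198 of 845, 20.6 to 26.4%) in Irg1+/+ and 13.6% (106 of 781, 11.2 to 16.2%) in Irg1-/-. These intervals did not overlap. Whether the shares of the libraries differed by more than counting error thus depended on the gate. Depth also moved with membership: members had medians of 15354 and 14663 UMIs, non-cycling C1q cells 6051 and 7368. With each cell thinned to 2000 UMIs and 1 UMI of Mki67 or Top2a asked for, the shares were 18% (92 of 511) and 15.5% (103 of 666), leaving out 46 and 22 shallower cells. Neutrophils, which do not divide, gave 25% (3 of 12) and 12.2% (6 of 49) by the same measure. T cells (at least 5 Cd3 UMIs, with no limit on C1q) gave 43.7% and 46.4%. The thinned shares of C1q cells were not above those of neutrophils in either library by more than counting error, but the few neutrophils leave wide intervals (5.49 to 57.2% and 4.63 to 24.8%), so that this cannot show whether the C1q cells lie above background. Over 6 sets of state markers the thinned shares ranged from 13.6% to 22.4% in Irg1+/+ and from 5.88% to 17.1% in Irg1-/-, and no order of states is read from them.

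The promoters of a few cycle genes are shown because Mki67 is in the gate, Hmmr and Ube2c led the mitotic genes by ratio and by UMIs and Mcm5 is a replication gene with many UMIs, and both classes are known for short promoter elements. Windows of RefSeq genes (GRCm38.p6, 250 bases before the start to 50 after it, written on the strand of the gene) were searched on both strands for CHR, the cell cycle homology region TTTGAA that is bound by complexes which repress genes in resting cells, for CCAAT, bound by NF-Y, and for the E2F letters TTTGGCGC, TTTGCCGC, TTTCGCGC and TTTCCCGC. Capitals mark the matches, and a match on the other strand reads as the reverse complement of the letters above. The windows are those of Mki67 (chr7:135716330-135716629, minus strand), Hmmr (chr11:40733388-40733687, minus strand), Ube2c (chr2:164769679-164769978, plus strand) and Mcm5 (chr8:75109259-75109558, plus strand):
Mki67: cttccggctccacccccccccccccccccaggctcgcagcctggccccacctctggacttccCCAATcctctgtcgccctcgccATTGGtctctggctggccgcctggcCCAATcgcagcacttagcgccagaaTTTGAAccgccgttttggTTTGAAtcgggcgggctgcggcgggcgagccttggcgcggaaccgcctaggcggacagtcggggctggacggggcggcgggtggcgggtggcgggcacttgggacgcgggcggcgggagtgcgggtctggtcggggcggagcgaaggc
Hmmr: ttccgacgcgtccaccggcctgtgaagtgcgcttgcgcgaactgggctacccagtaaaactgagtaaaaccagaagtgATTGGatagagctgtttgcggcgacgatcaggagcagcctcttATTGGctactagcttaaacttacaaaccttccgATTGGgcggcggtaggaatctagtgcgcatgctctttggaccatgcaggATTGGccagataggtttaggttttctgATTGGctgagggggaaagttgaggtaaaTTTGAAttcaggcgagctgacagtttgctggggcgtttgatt
Ube2c: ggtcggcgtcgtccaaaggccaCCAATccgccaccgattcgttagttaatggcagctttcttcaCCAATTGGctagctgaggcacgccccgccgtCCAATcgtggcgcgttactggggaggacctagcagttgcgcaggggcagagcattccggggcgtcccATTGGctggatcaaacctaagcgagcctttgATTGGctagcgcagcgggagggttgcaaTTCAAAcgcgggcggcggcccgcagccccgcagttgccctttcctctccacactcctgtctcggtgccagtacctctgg
Mcm5: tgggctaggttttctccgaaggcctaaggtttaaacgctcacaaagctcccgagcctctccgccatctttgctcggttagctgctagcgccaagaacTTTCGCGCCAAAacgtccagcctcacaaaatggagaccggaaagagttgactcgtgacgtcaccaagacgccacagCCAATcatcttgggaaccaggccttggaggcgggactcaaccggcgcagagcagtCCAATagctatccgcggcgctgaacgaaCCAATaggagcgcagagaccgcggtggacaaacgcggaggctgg

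Mki67 held 2 CHR and 3 CCAAT matches, Hmmr 1 and 5, Ube2c 1 and 6, and none of these windows held the E2F letters searched. Mcm5 held 3 CCAAT and 2 overlapping E2F matches and no CHR. Of the windows of G2/M genes 35 of 54 (64.8%) held CHR, of G1/S genes 4 of 40 (10%), of core macrophage genes 11.8% and of all 32851 windows 17.9%. CCAAT was held by 77.8%, 60%, 29.4% and 37.4%, and the E2F letters by 1.85%, 37.5%, 5.88% and 2.26%. RefSeq windows were matched for 48 of 59 G2/M genes, 35 of 48 G1/S genes and 16 of 26 core macrophage genes. A match describes letters and shows no binding.

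Members were compared with non-cycling C1q cells of the same library, 290 and 400 cells. Since the groups were formed on Mki67 and Top2a, what follows describes that choice. Of 8062 genes counted, those with a mean of at least 10 CPM, 614 were higher by at least 1.5-fold (0.58 log2 units) in both libraries (7.62%) and 209 lower (2.59%), and the median gene was higher by 0.11 and 0.10 log2 units. With scaling by TMM in place of the total the counts were 408 higher and 401 lower, since TMM lowered the ratios by 0.14 and 0.18 log2 units. Among C1q-rich cells 518 of 7974 genes were higher (6.5%) and 209 lower (2.62%).

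All 50 counted G2/M and mitosis genes were higher in members in both libraries, with medians of 2.80 and 3.46 log2 units. Hmmr, a spindle protein, stood at 80.8 and 72.4 CPM in members and at 1.52 and 2.67 CPM in non-cycling cells. Ube2c, the ubiquitin enzyme of the anaphase-promoting complex, stood at 212 and 217 CPM against 17.7 and 13.3 CPM (3.57 and 4.01 log2 units). Birc5 stood at 189 and 226 CPM against 31.3 and 23.1 CPM (2.58 and 3.29), and Cenpe at 135 and 102 CPM against 8.09 and 7.11 CPM (4.02 and 3.82). Ccna2 (cyclin A2) was 2.42 and 3.26 log2 units higher. The smallest differences were those of Bub3, a checkpoint protein (0.68 and 0.71), and of Cks2, a subunit of cyclin-dependent kinases (1.05 and 0.81). Outside all lists the 10 highest genes were Nek2, a centrosome kinase, Prr11, Ccn1, Melk, Spag5, Knstrn, Diaph3, Sparc, Kif15, a kinesin, and Cep55, with Nek2 at 28.2 and 28.6 CPM against 2.02 and 1.18 CPM. Ccn1 and Sparc, both secreted proteins of the matrix, rested on few members: 1 member of each library held 90% of the Ccn1 UMIs (30 and 10 in all) and 54.7% and 51.1% of the Sparc UMIs. Among C1q-rich cells the Sparc ratios were 1.54 and 0.058.

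Of 40 counted G1/S and replication genes 32 were higher and none lower, with medians of 1.20 and 2.19. Mcm5, a subunit of the replicative helicase, stood at 112 and 163 CPM against 42.0 and 30.2 CPM (1.41 and 2.43). Pcna, the sliding clamp, differed less, at 344 and 391 CPM against 263 and 235 CPM (0.39 and 0.74), below 1.5-fold in the Irg1+/+ library. Of the licensing factors, Cdt1 stood at 38.9 and 58.1 CPM against 42.0 and 30.8 CPM. Its inhibitor Gmnn (geminin) stood at 30.2 and 85 CPM against 24.8 and 21.9 CPM. Both passed 1.5-fold in the Irg1-/- library alone.

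Within members the balance between phases was wide. The share of G2/M in the summed level of both lists had a median of 55.1% (42.9 to 66.7%, a 95% interval of the median) in Irg1+/+ and 53.5% (37.9 to 63.2%) in Irg1-/-, and single members ranged from 0 to 100% and from 8.51 to 94.8%. G2/M genes outweighed G1/S genes in 36 and 37 members, and the reverse held in 28 and 34. Shares above 75% were found in 17 and 19 members and below 25% in 8 and 15. The medians of the libraries lay within each other's intervals. No phase is assigned to a cell from these shares, and the part of free RNA in them was not tested.

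**Figure D2:**
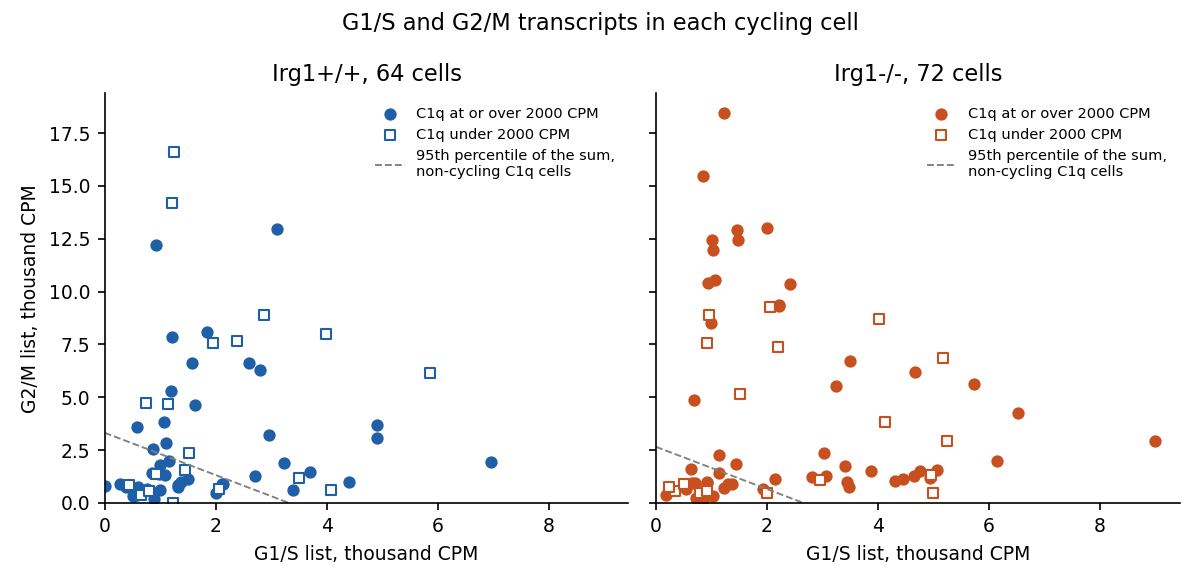
Summed level of the G1/S list on the x axis against that of the G2/M list on the y axis, both in CPM divided by 1000, with 1 point per member and the libraries side by side. The dashed line marks the 95th percentile of the sum in non-cycling C1q cells (3315 and 2651 CPM); 34 of 64 and 49 of 72 members lie beyond it.

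Chromatin genes of dividing cells were higher in 17 of 21, with medians of 1.17 and 1.53. Smc4, a condensin subunit, stood at 306 and 376 CPM against 93.0 and 93.3 CPM, and Tubb5, a tubulin of the spindle, at 646 and 874 CPM against 347 and 302 CPM. Of 28 nucleotide synthesis genes 12 were higher, among them Rrm1, the large subunit of ribonucleotide reductase (96.4 and 157 CPM against 33.9 and 26.1 CPM), and Tk1, thymidine kinase (50.6 and 94.8 CPM against 14.2 and 15.7 CPM), while the salvage enzyme Hprt differed by 0.25 and 0.32. Of 24 ribosome biogenesis and MYC target genes 5 were higher, Ran and Dkc1 among them. Of 6 counted genes of DNA methylation and TET enzymes 3 were higher (2 of 5 among C1q-rich cells): the maintenance methyltransferase Dnmt1 (85.7 and 83.2 CPM against 50.1 and 47.4 CPM), its partner Uhrf1 (49.6 and 86.7 CPM against 13.7 and 11.3 CPM) and Tdg, read from 13 and 16 UMIs. Tet2 and Tet3, which oxidise methylcytosine, differed by -0.24 and -0.28 and by -0.34 and -0.69.

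Genes of entry into the cycle and of its brakes, counted together, divided into both directions. Of 27 entry and brake genes 7 were higher and 3 lower (medians 0.33 and 0.12), and among C1q-rich cells 5 and 4 (medians -0.12 and 0.05). Cdkn1a (p21), an inhibitor of cyclin-dependent kinases, stood at 537 and 475 CPM in members and at 906 and 1033 CPM in non-cycling cells (-0.75 and -1.12). Btg1, an antiproliferative gene, was lower by 0.83 and 0.74 log2 units: it stood at 289 and 239 CPM against 515 and 398 CPM. Cdkn2c (p18), an inhibitor of CDK4 and CDK6, went the other way, at 29.2 and 35.8 CPM against 3.03 and 4.74 CPM. Cdkn3, a phosphatase of the cycle, did so too (2.68 and 3.24).

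Core macrophage genes differed little. Of 25 counted 1 was higher (Cst3) and 1 lower (Cd14), with medians of -0.31 and -0.29, and in C1q-rich members none passed either way. Cst3, a protease inhibitor that is also high in dendritic cells, was 0.82 and 0.59 higher in all members and -0.11 and 0.10 in C1q-rich ones. Csf1r, the receptor for the growth factor of macrophages, stood at 467 and 563 CPM against 775 and 791 CPM (-0.73 and -0.49), and Adgre1 at 267 and 404 CPM against 348 and 408 CPM. Trem2, a lipid receptor, stood at 238 and 197 CPM against 156 and 171 CPM. MHC class II genes had medians of -0.18 and -0.20, with H2-Aa at 5653 and 5649 CPM against 6720 and 6776 CPM. In C1q-rich members their medians were -0.64 and -0.37, with 2 of 12 lower, and H2-Aa stood at 4229 and 5005 CPM against 7236 and 6713 CPM in C1q-rich non-cycling cells. Class I genes had medians of -0.10 and -0.03 with none of 17 past 1.5-fold.

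Monocyte genes were lower in members, 10 of 17 and none higher, with medians of -1.65 and -0.76. Ly6c2, the surface marker of inflammatory monocytes, stood at 225 and 744 CPM in members and at 800.4 and 1814 CPM in non-cycling cells (-1.83 and -1.28). Ccr2, the receptor that brings monocytes into tissue, stood at 333 and 717 CPM against 1045 and 1305 CPM (-1.65 and -0.86), and Plac8 at 205 and 642 CPM against 879 and 1513 CPM (-2.09 and -1.24). Vcan, a matrix proteoglycan of monocytes, was lower by 2.70 log2 units in Irg1+/+ and by 0.83 in Irg1-/-. The medians were -1.38 and -0.71 in C1q-rich members and -1.57 and -0.58 against non-cycling cells of like depth. Spn, a marker of patrolling monocytes, differed by 0.55 and 0.51.

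Type I interferon response genes were lower in 14 of 32 and higher in none (medians -0.82 and -0.63), and among C1q-rich cells lower in 8 of 33 (medians -0.69 and -0.50). Ifit3 stood at 35.0 and 53.7 CPM against 101.6 and 139 CPM, and Ms4a4c at 154 and 425 CPM against 525 and 748 CPM. Of 28 chemokine and cytokine genes 8 were lower and 1 higher, with Il1b at 1144 and 846 CPM against 2310 and 2091 CPM (-1.01 and -1.30) and the neutrophil attractant Cxcl2 at 1773 and 1228 CPM against 2684 and 2036 CPM. The 1 higher was Il12b, with 77.8% and 92.9% of its UMIs in 1 member of each library, and without that member it gave -1.05 and -0.75. Of 28 type II interferon genes 4 were lower (medians -0.65 and -0.11), and of 20 dissociation stress genes 2 (medians -0.40 and -0.52) and among C1q-rich cells 1. Outside the lists the lowest included Thbs1, a matrix glycoprotein made by activated macrophages and monocytes (810 and 730 CPM against 2765 and 2425 CPM), Inhba (activin A, 45.8 and 59.0 CPM against 253 and 163 CPM) and Slfn4 (92.5 and 176 CPM against 255 and 459 CPM).

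Markers of other cells moved with membership as well. Dendritic cell markers were higher in 5 of 9 and lower in none (medians 1.27 and 0.89), and among C1q-rich cells none of 8 passed (medians -0.36 and -0.12). Melanocyte markers had medians of 2.65 and -0.20 and stroma and endothelium markers of 0.16 and 3.48, each high in the library where 1 C1q-low member held most of the UMIs, and among C1q-rich cells the medians were 0.54 and -0.0084 and -0.69 and -0.16. Of 8 NK cell markers 2 were higher (medians 0.35 and 0.24), and among C1q-rich cells none was higher and 1 lower (medians -0.12 and 0.12). Of 12 T cell markers none passed in either set. Their part in the other differences was not tested.

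The other lists had at most 5 genes past 1.5-fold in either direction. Alternative activation and resident genes were higher in 2 of 21 and lower in 3, and among C1q-rich cells higher in 2 of 20 and lower in 1. In all members Gatm, a creatine synthesis enzyme, stood at 262 and 359 CPM against 157 and 165 CPM, and Chil3 at 97.3 and 118 CPM against 311 and 238 CPM. Hypoxia and glycolysis genes were lower in 5 of 30 (medians -0.14 and -0.42), and among C1q-rich cells in 3 of 30 (medians 0.09 and -0.25). Lipid-associated macrophage genes were higher in 1 of 16 (Fabp4, with 82.2% of its Irg1-/- UMIs in 1 member and -0.70 log2 units there without it) and among C1q-rich cells in none, and TCA cycle and respiration genes higher in 3 of 30. Cholesterol and fatty acid synthesis genes were higher in 4 of 22 (medians 0.17 and 0.55), and among C1q-rich cells in 1 of 19 (medians -0.51 and 0.25). Growth factors and receptors were higher in 2 of 20 (Kit, a receptor of progenitors and mast cells, and Flt3) and lower in 3, and among C1q-rich cells higher in 1 of 19 and lower in 2. Of 15 p53 and damage response genes 2 were lower, and of 10 genes of the itaconate axis 1, Acod1 (-1.34 and -0.81). Among C1q-rich cells alone neither Kit nor Flt3 passed, with Flt3 at -0.96 and -0.44 log2 units of members over non-cycling cells (95% counting intervals -2.82 to 0.36 and -1.82 to 0.61) and Kit at -0.086 in the Irg1+/+ library.

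**Figure D3:**
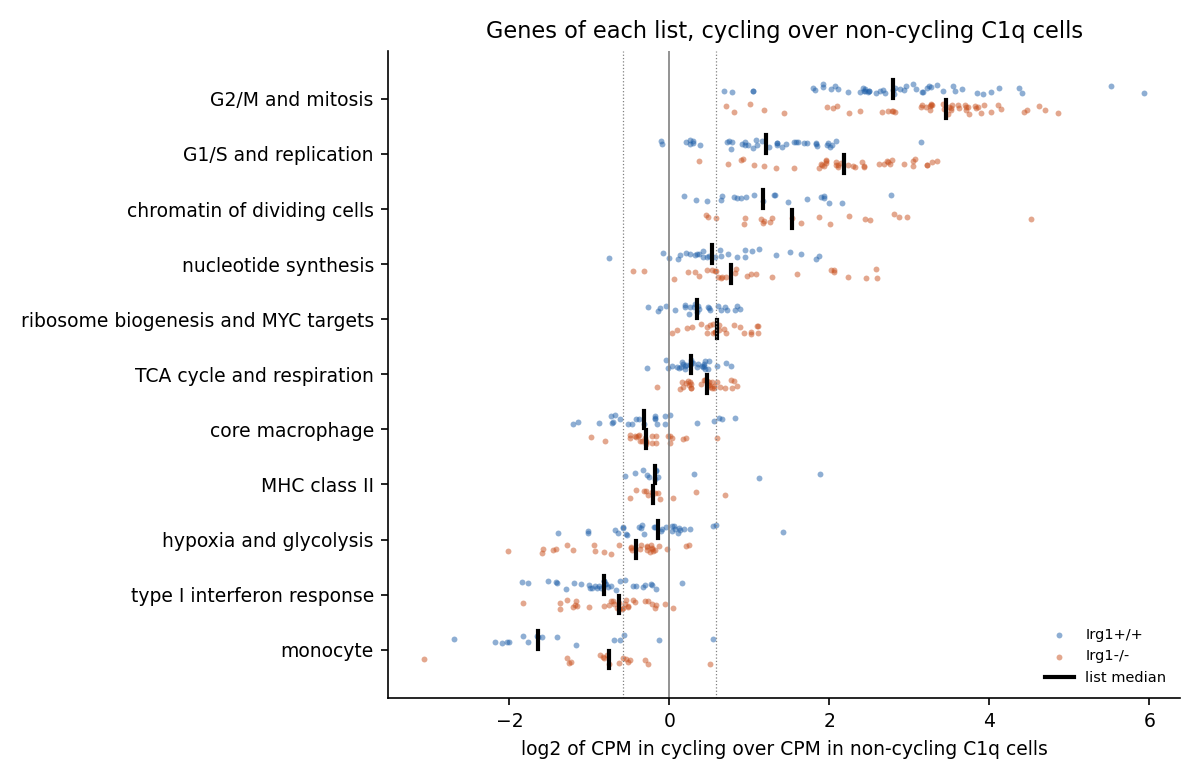
Log2 ratio of members over non-cycling C1q cells for each counted gene of 11 lists, with the Irg1+/+ and Irg1-/- libraries in separate colours and bars at the list medians; the dotted lines mark 1.5-fold either way. The G2/M genes all lie above 1.5-fold (medians 2.80 and 3.46), and the monocyte genes lie mostly below 0 (medians -1.65 and -0.76).

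The genotypes were then compared within members, to describe where cycling C1q macrophages of the library labelled Irg1-/- differ. Of 8062 genes 780 were at least 1.5-fold higher in the Irg1-/- library (9.68%) and 778 lower (9.65%), with a median near 0. Among C1q-rich members 1109 of 7974 were higher (13.9%) and 913 lower (11.4%). These counts rest on 64 and 72 cells of 2 pools, and the spread between mice is unknown.

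Replication genes were higher in the Irg1-/- members in 21 of 40 and lower in none (median 0.69), while in non-cycling cells the median of the same genes was -0.32. C1q-rich members gave 1766 and 2749 CPM of the G1/S list. The C1q-rich cycling cells that the Cd3 limit removed (153 and 52) gave the reverse order, 2856 and 2083 CPM. The direction is thus that of the members as gated. Gmnn was higher by 1.48 log2 units (0.89 to 2.13), Tk1 by 0.90 (0.41 to 1.41), and Mcm3 by 0.87 (0.47 to 1.29). Mcm5, at 0.54 (0.20 to 0.89), lay below 1.5-fold. Ccne1 (cyclin E1), which drives entry into S phase, stood at 6.81 and 31.3 CPM, from 7 and 35 UMIs. G2/M genes were higher in 7 of 50 and lower in 2 (median 0.24). Among C1q-rich members this changed to 32 of 49 higher and 1 lower (median 0.80), with Ube2c at 79.1 and 218 CPM, Birc5 at 132 and 244 CPM and Ccna2 at 83.7 and 157.5 CPM. Hmmr was at 80.6 and 80.0 CPM there. In the Irg1+/+ library the C1q-low members held much of the mitotic signal, 5199 CPM of the G2/M list against 2390 CPM in C1q-rich members, while in Irg1-/- the values were 3544 and 3865 CPM. The C1q-rich cycling cells that the Cd3 limit removed gave 3142 CPM of this list in Irg1+/+ and 2835 CPM in Irg1-/-. Top2a was higher by 0.66 (0.47 to 0.85), but it is a gate gene, so its ratio describes the choice of members. The libraries also differed in how near members stood to the gate, with 32 of 64 and 26 of 72 under 5 UMIs of Mki67 and Top2a. The part of this in the cycle gene ratios was not tested.

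Interferon genes were higher in the Irg1-/- members. Of the type II response 20 of 28 were higher and 1 lower, with a median of 0.98 against 0.37 in non-cycling C1q cells. Cxcl9, which attracts T cells through CXCR3, stood at 692 and 1922 CPM in members (1.47 log2 units, 1.35 to 1.60) and at 1198 and 1331 CPM in non-cycling cells (0.15). Gbp2, a guanylate-binding protein, stood at 449 and 1013 CPM (1.17) against 920 and 1195 CPM in non-cycling cells (0.38). Irf1, a transcription factor of the response, stood at 329 and 690 CPM (1.07). Iigp1, an interferon-induced GTPase, stood at 108 and 353 CPM (1.70). Nos2, the inducible nitric oxide synthase, was the 1 lower gene, at 110 and 30.4 CPM (-1.84), with 50.4% and 44.1% of its UMIs in 1 member of each library. Whether the ratio differs between members and non-cycling cells was not tested, and in the C1q-rich comparison the type II medians were 0.92 and 0.23.

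Of the type I response 16 of 32 were higher and 2 lower, with medians of 0.59 in members and 0.47 in non-cycling cells. Ifitm3, an antiviral membrane protein, stood at 926 and 1877 CPM (1.02) and Ifi27l2a at 271 and 573 CPM (1.08). Rsad2 and Ifit1 were the lower ones, Rsad2 at 217 and 88.5 CPM (-1.29) and Ifit1 at 89.6 and 56.3 CPM (-0.67). Among the 20 and 32 members with no Cd3 UMI the direction turned for Rsad2 (1.09), Ifit1 (0.58) and Nos2 (0.29). Of MHC class I genes none of 17 passed (median 0.20), but among C1q-rich members 6 of 17 were higher and none lower (median 0.50). Of 12 class II genes 1 was lower (median -0.07), and among C1q-rich members 1 was higher and 1 lower (median 0.16).

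Monocyte genes were higher in the Irg1-/- members in 11 of 17 and lower in none, with a median of 1.11 against 0.34 in non-cycling cells. Ly6c2 was higher by 1.72 (1.51 to 1.94) in members and by 1.18 in non-cycling cells, Plac8 by 1.64 and 0.78, and Ccr2 by 1.11 and 0.32. Vcan was higher by 1.40 (0.90 to 1.96) in members and stood at -0.47 in non-cycling cells. The Fc receptor Fcgr1 (171 and 324 CPM, 0.92) and the integrin chain Itgam, CD11b (393 and 698 CPM, 0.83), both core macrophage genes that monocytes carry, were higher in members, and in non-cycling cells they differed by 0.07 and -0.02. Of 25 core macrophage genes these were 2 of 4 that were higher, and none was lower (median 0.11), while among C1q-rich members 3 were higher and 2 lower (median -0.05).

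Lipid-associated macrophage genes were lower in the Irg1-/- members in 10 of 16 (median -0.81, against -0.22 in non-cycling cells), and in 13 of 16 among C1q-rich members. Gpnmb, a glycoprotein of lipid-laden macrophages, stood at 759 and 157 CPM (-2.27), with 33.5% and 36.4% of its UMIs in 1 member of each library. Abca1, which exports cholesterol, stood at 223 and 63.5 CPM (-1.80, and 0.017 among members with no Cd3 UMI). Lgals3 (galectin 3) stood at 3790 and 2248 CPM (-0.75), with at most 8.4% of its UMIs in 1 member. Hypoxia and glycolysis genes were lower in 16 of 30 and higher in none (median -0.61 against -0.29 in non-cycling cells). Mmp12, macrophage elastase, stood at 889 and 213 CPM (-2.06), and Gapdh at 2250 and 1482 CPM (-0.60).

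Alternative activation and resident genes divided, with 7 of 21 lower, 4 higher and 10 neither (median -0.31), and among C1q-rich members lower in 12 of 20 and higher in 2. Igf1, a growth factor, stood at 167 and 37.6 CPM (-2.14) and Gas6, the ligand of Mertk, at 68.1 and 12.5 CPM (-2.40). The mannose receptor Mrc1 stood at 781 and 520.5 CPM (-0.58), and at 1082 and 629 CPM among C1q-rich members (-0.78). The scavenger receptor Cd36 stood at 730.1 and 381 CPM (-0.94). Retnla went the other way, at 17.5 and 622 CPM, with 59.9% of its Irg1-/- UMIs in 1 member. In non-cycling cells Retnla stood at 32.4 and 184 CPM. Of the DNA methylation genes Dnmt3a, a de novo methyltransferase, was lower (142 and 67.1 CPM, -1.08) and Uhrf1 higher (0.80).

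**Figure D4:**
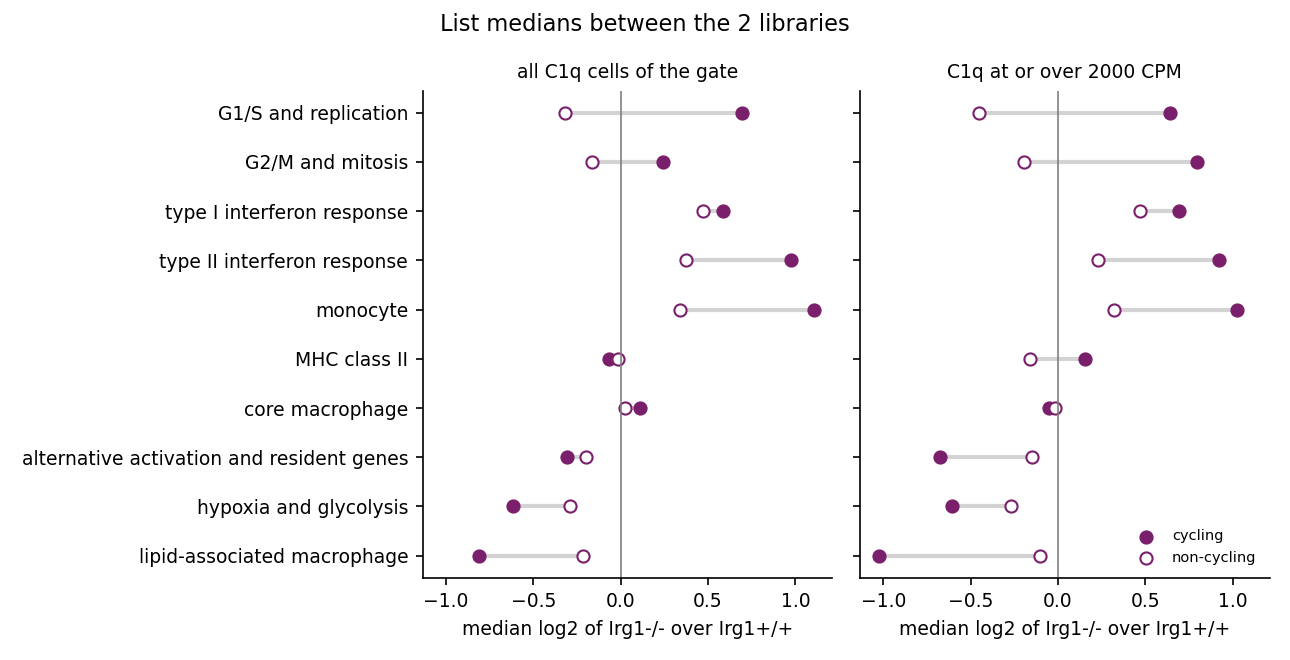
Median log2 ratio of Irg1-/- over Irg1+/+ for 10 lists, in members (filled) and non-cycling C1q cells (open), for all members on the left and C1q-rich ones on the right. The type II interferon medians are 0.98 in members and 0.37 in non-cycling cells, and the lipid-associated macrophage medians are -0.81 and -0.22.

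Outside the lists the largest genotype ratios, among genes with at least 100 UMIs, were often those of 1 cell. Gbp2b stood at 9.73 and 167 CPM in members (4.04) and at 42.0 and 93.3 CPM in non-cycling cells, with 25.7% of its Irg1-/- UMIs in 1 member. Fpr2, a formyl peptide receptor, stood at 12.7 and 111 CPM (3.08) and at 90.5 and 86.5 CPM in non-cycling cells, and the receptors Sirpb1a and Siglece stood at 23.4 and 109 CPM and at 20.4 and 85.8 CPM. These 3 had at most 23.1% of their UMIs in 1 member. Lipg had 51.4% of its Irg1-/- UMIs in 1 member, Lyz1 57.1%, and Sparc 51.1%. Lyz1 differed as much in non-cycling cells (8.09 and 117 CPM). Of the lowest, Pmp22 stood at 207 and 40.2 CPM (-2.35, -2.86 to -1.90) against 67.8 and 65.8 CPM in non-cycling cells, and Atp6v0d2, a proton pump subunit, at 136 and 35.8 CPM (-1.92). Dio2 and Ccl17 had 82.2% and 81.8% of their Irg1+/+ UMIs in 1 member, and Ccl22 71.8%.

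Chromatin genes of dividing cells were higher in the Irg1-/- members in 5 of 21 (median 0.32), and among C1q-rich members in 10 of 21 (median 0.57). In nucleotide synthesis 6 of 28 were higher and none lower (7 and 3 of 29 among C1q-rich members), and in ribosome biogenesis none of 24 passed. Entry and brake genes were higher in 2 of 27 and lower in 1 (6 and 2 among C1q-rich members). Chemokine and cytokine genes were higher in 6 of 28 and lower in 3 (median -0.13), but among C1q-rich members higher in 4 of 26 and lower in 6 (median -0.27). Growth factors and receptors were higher in 3 of 20 and lower in 5 (2 and 4 of 19 among C1q-rich members), and cholesterol and fatty acid synthesis higher in 2 of 22 and lower in 1 (5 of 19 and none among C1q-rich members). TCA cycle and respiration genes were higher in 1 of 30, p53 and damage response genes higher in 1 of 15 and lower in 2 (4 and 2 of 16 among C1q-rich members), and dissociation stress genes higher in 1 of 20 and lower in 1 (2 and 1 among C1q-rich members). Of the itaconate axis 2 of 10 were higher and 1 lower (2 and 3 among C1q-rich members), Acod1 among the higher (0.86, 0.36 to 1.38, but -0.0027, -1.09 to 1.11, with members thinned to 4000 UMIs) and the cystine carrier Slc7a11 the lower (81.8 and 16.1 CPM). Markers of other cells moved as well: all 6 counted melanocyte genes were lower, all 4 neutrophil genes and all 5 stroma genes higher (medians -4.15, 1.40 and 4.18), and 5 of 8 NK cell genes higher with a median of 0.97, against 1.09 in non-cycling cells. Of the Irg1+/+ melanocyte UMIs 59.8% and of the Irg1-/- stroma UMIs 66.5% lay in 1 member, and among C1q-rich members the melanocyte median was -1.61 (4 of 4 lower) and the stroma median 0.028 (none of 2 higher), while 7 of 8 NK cell genes were higher there (median 1.32). Neutrophil genes were higher in 4 of 4 among C1q-rich members too (median 1.16), and in non-cycling cells their median was 2.31. B cell markers were higher in 1 of 2 (median 0.77), and among C1q-rich members in 3 of 3 (median 1.18). T cell markers were higher in 2 of 12 and lower in 1 (1 and 1 among C1q-rich members). Dendritic cell markers were higher in 3 of 9 and lower in 4 (median -0.45), and among C1q-rich members the balance turned, with 3 of 8 higher and 1 lower (median 0.45). Their part in the other differences was not tested.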

How the data were processed

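Per the labels and the study's methods, the authors trimmed reads with fastp, extracted barcodes with UMI-tools and aligned to the mouse genome of Ensembl with STAR (GRCm38 and CASAVA 1.8 are named in the processing notes). The deposited values are raw UMI counts of 31253 genes for 6408 and 5896 cells, 43617546 and 36432067 UMIs. No column of other samples was present. In this work 124 and 102 cells with at least 10% mt- UMIs were left out. No doublet caller was run and doublets were kept. Leaving out cells with 2 UMIs of another type left 0 and 1 members, so it gave no value. Counts were summed per group and scaled to the total without mt- genes. Log2 ratios used a pseudocount of 0.5 UMIs. TMM factors (edgeR 4.0.16, R 4.3.3) were an alternative, and other steps ran in Python 3.11.15, checked on simulated data. Genotypes came from the labels. Members, the 33 lists and the line at 2000 CPM were chosen with earlier results of these data known. Named were gate and marker genes, Acod1, per list the 4 with most UMIs and the 2 highest and 2 lowest ratios, and outside the lists the 10 highest and 10 lowest; Flt3, Xcr1, Adgre1, Mertk, Csf1r, Cxcl2, H2-Aa and further list members beyond these were chosen after their values were seen. A few genes that this rule names, and 1 set of state markers, are not reported here.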

Additional observations from a re-analysis of the deposited data

Results flagged for a closer look

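A few genes differed from non-cycling C1q cells in opposite directions in the libraries. In log2 units of members over non-cycling cells, Irg1+/+ first, Gas6 gave 1.61 and -0.88, Pmp22 1.61 and -0.70, and Ccl17 4.04 and -2.88. The reverse order was found for Retnla (-0.86 and 1.75), Gbp2b (-2.05 and 0.84) and Lipg (-1.51 and 3.06). The difference between the libraries was not tested for any of them, and 1 member held 81.8% of the Ccl17 UMIs of Irg1+/+, 59.9% of the Retnla UMIs and 51.4% of the Lipg UMIs of Irg1-/-.

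Cells that met the C1q line at 2000 CPM and the cycle gate, but had more than 1 Cd3 UMI, lay outside the members: 153 in the Irg1+/+ library and 52 in the Irg1-/- library. Whether they are macrophages with captured T cell RNA or doublets was not tested.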

How the results depend on the processing

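No paired analysis was possible because each genotype has 1 library, a pool of 3 mice, so that the groups share fewer than 2 replicate numbers. The cause of the changes below was not tested.

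Shares of members in Irg1+/+ and Irg1-/- were 5.75% and 6.69% with at least 5 UMIs of Mki67 and Top2a, 6.90% and 7.84% with Cd3 at 0, and 4.57% and 5.78% with C1q at 2000 CPM and at least 5 UMIs. Without a Cd3 limit, and with C1q at 2000 CPM or above in its place, they were 23.4% and 13.6%. With C1q at 2000 CPM or above and the Cd3 limit kept, they were 10.3% in Irg1+/+ and 9.46% in Irg1-/-. Thinned to 4000 UMIs they were 30.0% and 25.7%, and over state markers 26.3% to 45.2% in Irg1+/+ and 21.2% to 37.5% in Irg1-/-. The median G2/M share was 69.2% in Irg1+/+ with at least 5 UMIs and 65.2% in Irg1-/- with Cd3 at 0.

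Genes lower in members numbered 336 with at least 5 UMIs, 320 with C1q at 2000 CPM as well, and 137 with a pseudocount of 5 UMIs. TMM gave 408 higher and 401 lower, a mean of at least 50 CPM 142 and 119 of 3715, and no filter 2673 and 603 of 15660. Between genotypes the genes higher and lower in Irg1-/- were 1279 and 1572 with Cd3 at 0 (20 and 32 members), 1326 and 1318 with C1q at 2000 CPM and at least 5 UMIs, 211 and 194 at 50 CPM, 2913 and 2849 without a filter, and 1435 and 1409 with members thinned to 4000 UMIs (3 and 3 left out).

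Single genes reversed. Between genotypes these were Adm (1.09, and 0.98 in C1q-rich members under the same limit) and Ccl22 (0.42) with at least 5 UMIs; with Cd3 at 0 Nos2 (0.29), Rsad2 (1.09), Ifit1 (0.58), Abca1 (0.017), Lyz1 (-0.087), Ccl22 (0.093) and Sparc (-3.33); Sparc in C1q-rich members (-1.12); and Acod1 with members thinned (-0.0027). Over non-cycling cells Cst3 reversed in Irg1+/+ with C1q at least 20 UMIs (-0.45), in C1q-rich members (-0.11), and in these with at least 5 UMIs (-0.056, and -0.051 in Irg1-/-). Over the same 3 settings Flt3 gave -0.98, -0.96 and -0.48 in Irg1+/+ and -0.43, -0.44 and -1.20 in Irg1-/-, Fabp4 -0.68, -0.67 and -1.04 in Irg1-/- (also -1.12 with at least 5 UMIs alone and -0.45 with Cd3 at 0), and Il12b -3.48, -2.32 and -1.19 in Irg1+/+. Sparc gave -0.039 in Irg1-/- with C1q at least 20 UMIs, -0.79 in Irg1+/+ in C1q-rich members with at least 5 UMIs, and -3.30 in Irg1-/- with Cd3 at 0. Kit gave -0.086 and -0.54 in Irg1+/+ in the last 2 of the 3 settings. With Cd3 at 0, Tdg (-0.061) and Il12b (-0.55) reversed in Irg1-/-. Without the member with the most UMIs of the gene Il12b gave -1.05 and -0.75 and Fabp4 -0.70 in Irg1-/-, and as the mean CPM of single cells Il12b gave -0.17 in Irg1+/+.

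The 95% counting intervals of these values held 0 except for Rsad2 and, over non-cycling cells, Sparc with Cd3 at 0, Cst3 in Irg1+/+ with C1q at least 20 UMIs and in C1q-rich members, and Il12b in Irg1+/+ with C1q at least 20 UMIs; those without the highest member have no interval. A reversal was counted only for a gene past the fold line, so smaller values changed sign besides these. Of the other values of single genes 2207 stayed within the interval of the value reported and 510 moved out of it, and of list medians 552 stayed and 78 moved. Leaving out cells with 2 or more UMIs of another type gave no value, as 0 and 1 members were left.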
